A study of Mus musculus with 2 samples.

Results

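Isg15, Ifit1, Ifit3, Rsad2, Irf7, Bst2, Gbp2, Iigp1 and Irf1 are interferon-stimulated genes, and their RNA was followed here through the cell classes of aged mouse bone and marrow. These 9 genes are named members out of the 32285 genes in the count tables. They were chosen by a list made with earlier readouts of the same cells in view, so their levels are a description and no p-value is attached to them. Interferons are cytokines that bind receptors on the cell surface and act through JAK kinases and the transcription factors these switch on. Type I interferons mainly switch on genes with an interferon-stimulated response element (ISRE), whereas interferon-gamma acts on the gamma-activated site (GAS), and many target genes answer to both. In bone marrow these cytokines are known for acting on blood-forming stem cells and on the stromal cells that house them.

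The femurs and tibiae of 3 male mice of the INK-ATTAC genotype, aged 24 months and given no treatment, supplied the cells. INK-ATTAC mice carry a caspase 8 transgene under the p16 Ink4a promoter that kills expressing cells only when the drug AP20187 is given, and no mouse of this experiment received it. Marrow and digested bone were combined, red cells were lysed, cells with lineage markers (Ter-119 among them) were removed with magnetic beads, and live CD45- cells were sorted, pooled and run as droplet single-cell RNA-seq. There was no young, wild-type, drug-treated or interferon-treated group, so every comparison below is between cell classes of 1 pool.

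The 2 deposited samples held 116827845 and 120556381 UMIs (unique molecular identifiers, which count RNA molecules). They shared 10928 of their 11056 barcodes, and the counts of a barcode differed between them by less than sampling noise, so they were treated as 2 lanes of 1 sample and summed. Numbers of UMIs below are such sums unless given as a mean of the lanes. A molecule read in both lanes is counted 2 times in a sum. Of the barcodes, 9573 had at least 200 genes and at most 20% mitochondrial UMIs. A level is given as CPM, the UMIs of a gene per 1000000 UMIs of the class, with a 95% Poisson interval computed on the mean of the lanes. All intervals cover counting error only and say nothing about variation between mice.

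LEPR stromal cells, the perivascular stromal cells of marrow, were gated on at least 1 Lepr UMI and 5000 CPM of Cxcl12 and numbered 1877. Marker lists that hold none of the 9 genes gave 82 fibroblast-like, 52 endothelial-like and 103 megakaryocyte-like cells and 6909 erythroid-like cells. The erythroid cells were divided by the share of globin UMIs into 1994 cells under 0.5%, 825 at 0.5 to 1%, 1699 at 1 to 2.5%, 1573 at 2.5 to 6% and 818 at 6% or more, an order that follows haemoglobin build-up during red cell maturation. The LEPR stromal markers summed to 32663.4 CPM in LEPR stromal cells and 107.4 CPM in erythroid cells. Markers of plasmacytoid dendritic cells, the main professional interferon producers, summed to 7.16 CPM in LEPR stromal cells and to less in every other class that was compared, and macrophage and T or NK cell lists summed to 9.12 and 0.837 CPM in LEPR stromal cells. Endothelial-like cells also held 4106 CPM of the LEPR stromal markers, of which 3270 CPM was Cxcl12, while Pdgfrb, Il7 and Chrdl1 had no UMI there. The median cell held 5188 UMIs among LEPR stromal cells, 3248 among endothelial-like cells and 24820 among erythroid cells.

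The promoter sequences show which of the interferon elements each gene carries. Windows of 250 bases before to 50 bases after the annotated start were read from RefSeq (GRCm38.p6) for 8 members and searched on both strands for the ISRE core GAAANNGAA and for the GAS letters TTCNNNGAA. The ISRE core was found in 6 of 8 members and in 8.56% of all 32851 windows, and the GAS in 2 of 8 members and in 8.3% of all windows. The window of Iigp1 was not read. The 6 windows below are examples with and without each motif, shown with matches in capitals and the strand of the gene.

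Isg15 (chr4:156200769-156201068, minus strand): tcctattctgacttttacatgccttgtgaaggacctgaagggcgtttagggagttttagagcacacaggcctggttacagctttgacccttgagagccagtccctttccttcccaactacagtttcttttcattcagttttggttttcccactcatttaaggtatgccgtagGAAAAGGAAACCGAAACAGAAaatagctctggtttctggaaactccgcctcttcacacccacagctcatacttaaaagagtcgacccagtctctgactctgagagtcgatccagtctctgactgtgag
Ifit1 (chr19:34640639-34640938, plus strand): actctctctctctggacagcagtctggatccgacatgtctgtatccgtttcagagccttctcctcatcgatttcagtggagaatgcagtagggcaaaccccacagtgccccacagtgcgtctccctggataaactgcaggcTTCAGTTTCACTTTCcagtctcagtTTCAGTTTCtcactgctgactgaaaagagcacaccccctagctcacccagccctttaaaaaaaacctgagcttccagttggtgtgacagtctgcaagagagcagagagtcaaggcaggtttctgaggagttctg
Rsad2 (chr12:26456403-26456702, minus strand): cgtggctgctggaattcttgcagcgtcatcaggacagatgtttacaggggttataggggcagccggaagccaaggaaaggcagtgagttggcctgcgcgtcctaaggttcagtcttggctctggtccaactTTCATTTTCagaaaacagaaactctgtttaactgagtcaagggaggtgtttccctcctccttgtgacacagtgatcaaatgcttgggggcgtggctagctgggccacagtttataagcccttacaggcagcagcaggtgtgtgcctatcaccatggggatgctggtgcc
Bst2 (chr8:71537423-71537722, minus strand): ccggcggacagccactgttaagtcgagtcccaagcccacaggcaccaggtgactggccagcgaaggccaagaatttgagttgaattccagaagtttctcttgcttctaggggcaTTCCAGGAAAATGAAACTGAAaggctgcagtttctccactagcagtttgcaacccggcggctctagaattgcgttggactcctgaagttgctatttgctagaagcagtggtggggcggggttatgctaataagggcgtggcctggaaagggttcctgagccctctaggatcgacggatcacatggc
Gbp2 (chr3:142620413-142620712, plus strand): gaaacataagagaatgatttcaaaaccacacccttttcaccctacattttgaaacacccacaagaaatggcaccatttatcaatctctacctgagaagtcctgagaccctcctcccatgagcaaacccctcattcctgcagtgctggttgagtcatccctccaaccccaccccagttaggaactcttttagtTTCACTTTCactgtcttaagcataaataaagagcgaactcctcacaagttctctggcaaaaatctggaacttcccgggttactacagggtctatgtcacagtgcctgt
Irf1 (chr11:53769764-53770063, plus strand): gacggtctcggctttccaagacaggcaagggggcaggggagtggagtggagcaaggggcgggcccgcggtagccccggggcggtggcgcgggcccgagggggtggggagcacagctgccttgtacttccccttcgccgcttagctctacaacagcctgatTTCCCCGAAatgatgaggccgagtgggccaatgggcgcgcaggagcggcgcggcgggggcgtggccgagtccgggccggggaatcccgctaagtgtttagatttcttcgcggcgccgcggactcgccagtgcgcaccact

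Isg15 held 3 overlapping ISRE cores that began 78, 72 and 66 bases before the start, and Ifit1 held 3 that began 109, 103 and 84 bases before it. Rsad2 and Gbp2 held 1 each. In Bst2, 2 ISRE cores overlapped each other and a GAS that began 136 bases before the start. Irf1 was the member with a GAS and no ISRE core, in the window of the first of its 2 annotated starts. Ifit3 held 3 ISRE cores and Irf7 neither motif. A match is a description of letters and not a tested site, and the absence of a match in so short a window says nothing about a more distant element.

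Across cell classes, 8 of the 9 genes were at least 2-fold higher in LEPR stromal than in erythroid cells, and Rsad2 was lower. As the mean over single cells the count was 7, since Isg15 then had a log2 ratio of 0.64. Among all 12503 genes with at least 100 UMIs in these classes, 44.5% were at least 2-fold higher and 19.5% at least 2-fold lower in LEPR stromal cells. Together the members took 1063 CPM (1035 to 1091) in LEPR stromal cells and 102 CPM (99.9 to 104) in erythroid cells. They took 1030 CPM (839 to 1252) in endothelial-like, 182 CPM in fibroblast-like and 106 CPM in megakaryocyte-like cells. Erythroid cells at 6% or more globin had 271 CPM (261 to 282). At least 1 UMI of a member was seen in 83.3% of LEPR stromal cells and, with every cell thinned to 1000 UMIs, in 46.9% of them and in 9.87% of erythroid cells. At that depth the share was 51.9% in endothelial-like cells and 33.5% in erythroid cells at 6% or more globin.

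**Figure D1:**
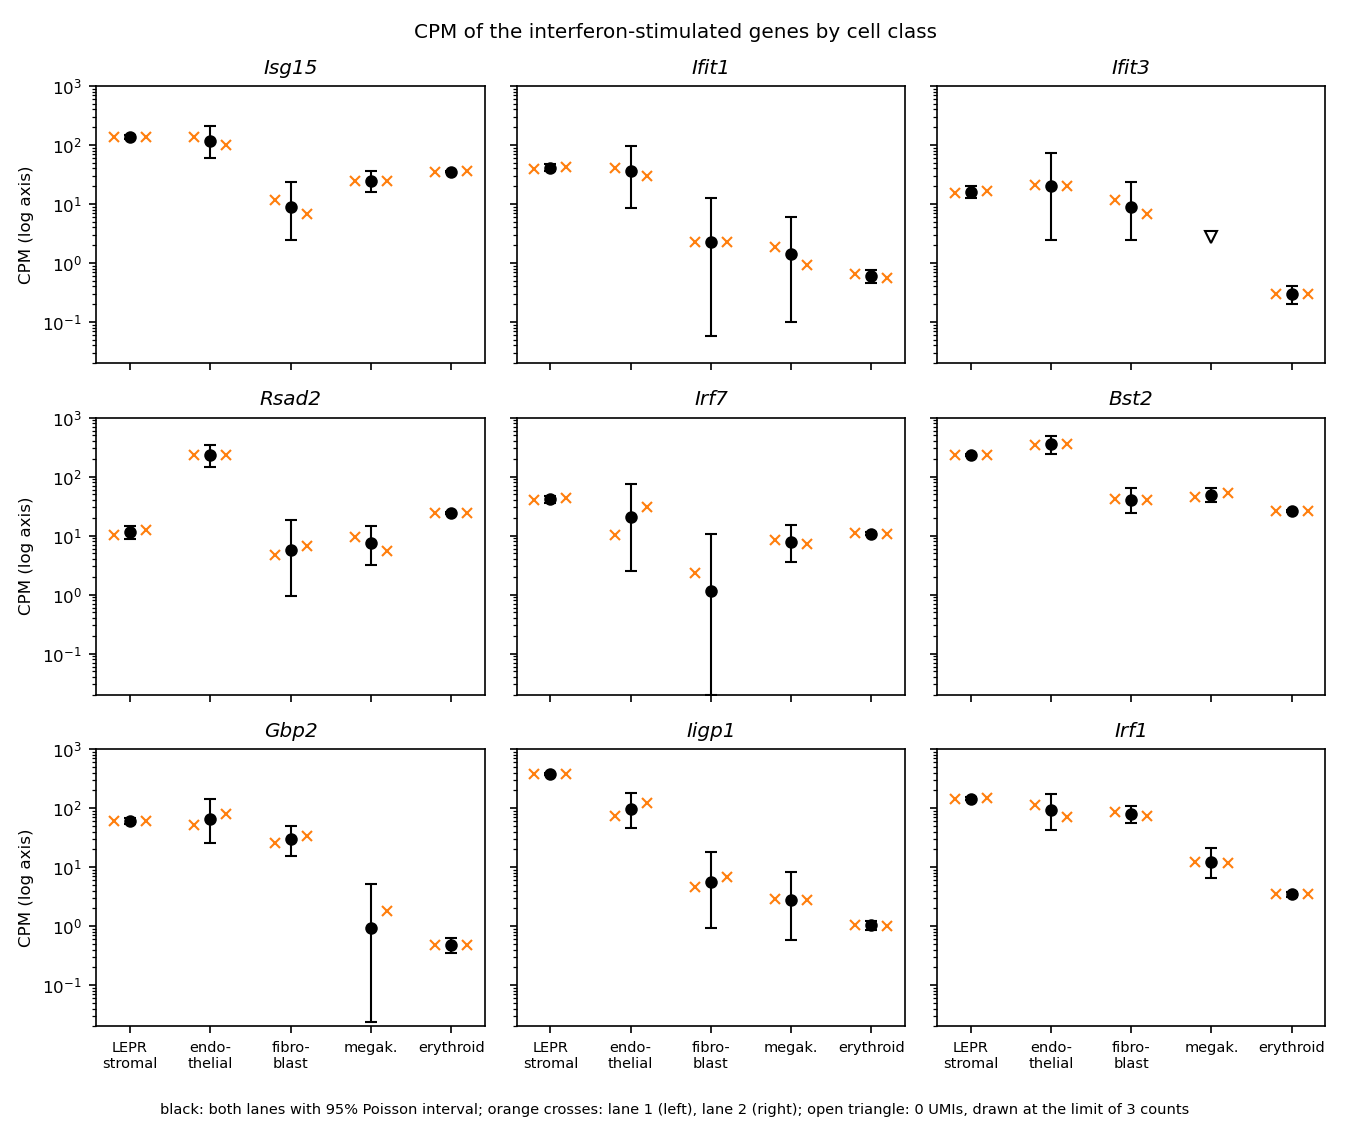
CPM (log axis) of each member in 5 cell classes. Black points are both lanes with 95% Poisson intervals, orange crosses are the lanes, and the open triangle marks a class with 0 UMIs, drawn at the limit of 3 counts, while the interval of Irf7 in fibroblast-like cells runs below the axis. Iigp1, Gbp2, Ifit1 and Ifit3 are near 1 CPM or lower in erythroid cells, while Rsad2 is highest in endothelial-like cells at 229.6 CPM.

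Among the effectors, Iigp1 was the most abundant member in LEPR stromal cells. It encodes an immunity-related GTPase that attacks the vacuoles of intracellular parasites, and lies on chromosome 18 from 60376027 to 60392634 (GRCm38, plus strand). UMIs count the 3′ end of each molecule, a scale that does not depend on transcript length. Its level was 382 CPM in lane 1 and 376 CPM in lane 2, with UMIs in 48.6% of the cells. Endothelial-like cells came next at 72.6 and 120 CPM, which was 3.91-fold lower than LEPR stromal cells. Fibroblast-like cells had 5.66 CPM (0.941 to 18.1), megakaryocyte-like cells 2.79 CPM (0.575 to 8.15), all from 1 cell, and erythroid cells 1.03 CPM (0.842 to 1.24), and these intervals overlapped. The ratio of LEPR stromal to erythroid cells was thus 369-fold (305 to 452) with the erythroid level taken as it stands, and 92.0% of all Iigp1 UMIs of the kept cells lay in LEPR stromal cells.

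The low levels of Iigp1 were set against what stray stromal RNA would give. Cxcl12, a stromal chemokine, was at 67.96 CPM in erythroid cells, and if all of it had come from LEPR stromal RNA the same RNA would bring 1.16 CPM of Iigp1, against the 1.03 CPM measured. For Gbp2 this reckoning gave 0.185 against 0.475 CPM, and for Isg15 it gave 0.418 against 35.5 CPM. Removal of barcodes called doublets took the erythroid Iigp1 level to 0.438 CPM, so that the log2 ratio of 8.53 became 9.80, outside the interval of the 369-fold ratio, and in cells at 6% or more globin 1 UMI was found (0.0504 CPM) where the reckoning gave 1.05 CPM. In fibroblast-like cells it gave 7.32 against 5.66 CPM. Since the erythroid and fibroblast-like levels of Iigp1 were not above this reckoning, expression was not read from them, and the part of stray RNA was not tested further. In endothelial-like cells Cxcl12 was at 3270 CPM, and how much of it was their own RNA was not tested. Taken as all stromal, it gave 55.8 of the 96.9 CPM of Iigp1, but 20.1 of 117 CPM of Isg15 and 1.69 of 229.6 CPM of Rsad2.

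Gbp2, a guanylate-binding protein that coats intracellular pathogens, had 59.6 and 61.3 CPM in the lanes of LEPR stromal cells and 0.483 and 0.468 CPM in erythroid cells. The ratio was 127-fold (94.5 to 175). It was measured at 66.3 CPM (25.6 to 140.2) in endothelial-like cells and 29.4 CPM (15.7 to 50.3) in fibroblast-like cells. The intervals of LEPR stromal and endothelial-like cells overlapped, and megakaryocyte-like cells held 2 Gbp2 UMIs in all.

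The IFIT proteins bind viral RNA that lacks the host cap structure. Ifit1 was at 39.9 and 42.6 CPM in LEPR stromal cells and 0.601 CPM in erythroid cells, a 68.7-fold ratio (51.9 to 92.2). Ifit3 (chr19:34583531-34588731, plus strand) was at 15.3 and 16.8 CPM in LEPR stromal cells and 0.294 CPM in erythroid cells, a 54.8-fold ratio (36.1 to 85.3). In endothelial-like cells Ifit1 was at 35.7 CPM (8.62 to 97.0) and Ifit3 at 20.4 CPM (2.47 to 73.7), and neither differed from LEPR stromal cells beyond counting error. For Ifit3 both levels were under the 30.6 CPM that a count of 0 would allow in endothelial-like cells, so a lower level there could not have been seen. All 4 Ifit3 UMIs of that class were in 1 cell, as were 4 of its 7 Ifit1 UMIs, and without the 10 cells with the most member UMIs Ifit1 was at 7.08 CPM. No Ifit3 UMI was found in the 103 megakaryocyte-like cells, which allows up to 2.79 CPM.

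Isg15 is a ubiquitin-like protein that is attached to other proteins and also released by cells. It was at 138 and 136 CPM in LEPR stromal cells, 135 and 100.3 CPM in endothelial-like cells and 34.7 and 36.3 CPM in erythroid cells. Fibroblast-like cells had 9.06 CPM (2.47 to 23.2), which was 15.1-fold lower than LEPR stromal cells. LEPR stromal and endothelial-like cells did not differ beyond counting error. Without the 10 endothelial-like cells with the most member UMIs that class had 28.3 CPM. Leaving out cells chosen for their member UMIs lowers a level by the choice itself. Since 10 cells are a far larger part of 52 than of 1877, no difference from the stroma was read from it. Megakaryocyte-like cells, at 24.6 CPM (16.2 to 35.9), overlapped both erythroid and fibroblast-like cells. The LEPR stromal to erythroid ratio of 3.85-fold (3.55 to 4.17) was among the smallest of the members, and since erythroid cells were so many and so deep, they held 81% of all Isg15 UMIs and LEPR stromal cells 15.6%.

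Bst2 encodes tetherin, which holds budding virus particles at the cell surface. LEPR stromal cells had 236 and 228 CPM and endothelial-like cells 342 and 361 CPM, a 1.52-fold difference (1.05 to 2.13). Levels were 49.3 CPM in megakaryocyte-like, 40.8 CPM in fibroblast-like and 25.8 CPM in erythroid cells, with the fibroblast-like interval (24.1 to 64.4) overlapping both neighbours. The plasma cells, 51 barcodes by their marker list, held 199.9 CPM (169 to 235), a ratio to LEPR stromal cells of 0.862 (0.722 to 1.02), but 129 CPM without the 10 cells with the most member UMIs.

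The transcription factors of the set had unlike ratios. Irf1, which is induced mainly by interferon-gamma, was at 143 and 147 CPM in LEPR stromal cells and at 3.43 and 3.46 CPM in erythroid cells, a 42.1-fold ratio (37.2 to 47.8). Its fibroblast-like level of 79.2 CPM (55.2 to 110) was 1.83-fold lower than in LEPR stromal cells and the highest of any member in fibroblast-like cells. Without the 10 fibroblast-like cells with the most member UMIs it was 30.8 CPM. Endothelial-like cells had 91.8 CPM (42.0 to 174) and megakaryocyte-like cells 12.1 CPM (6.43 to 20.7). Irf7 (chr7:141262706-141266481, minus strand), which amplifies the type I response, was at 39.6 and 43.2 CPM in LEPR stromal cells and 10.8 and 10.4 CPM in erythroid cells, a 3.89-fold ratio (3.36 to 4.5).

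Rsad2 was the exception. It encodes viperin, a radical SAM enzyme that makes a chain-terminating nucleotide. LEPR stromal cells had 10.2 and 12.6 CPM and erythroid cells 24.1 and 24.0 CPM, a 2.1-fold lower level in the stroma, and 96.0% of all Rsad2 UMIs lay in erythroid cells. Cells at 6% or more globin held 48.8% of all Rsad2 UMIs, and in the other 4 globin bins the level was 7.40 to 19.0 CPM, below the stroma in the first bin and less than 2-fold above it in the rest. With a minimum of 500 genes the levels were 11.5 and 19.2 CPM, under 2-fold, and lane 2 alone, gated again, gave a log2 ratio of -0.95. As the mean over single cells the levels were 9.78 and 205.8 CPM, a far larger difference. In LEPR stromal cells 2.45% of cells had a UMI, and 61.0% of the UMIs were in 10 cells. Megakaryocyte-like and fibroblast-like cells, at 7.43 and 5.66 CPM, overlapped LEPR stromal cells. Without the LEPR stromal cells whose globin share was 1% or more, the level was 7.41 CPM, and without called doublets it was 7.00 CPM.

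Endothelial-like cells had 228 and 231 CPM of Rsad2, 20.1-fold (11.8 to 33) above LEPR stromal cells. The class is small: the 45 UMIs came from 12 of 52 cells, 17 of them from 1 cell, and without the 10 cells with the most member UMIs the level was 77.9 CPM. Of the 9 members, 1 was at least 2-fold higher than in LEPR stromal cells (10.7% of 9562 genes were) and 2, Iigp1 and Irf7, at least 2-fold lower (21.1% of genes). Without the 10 cells with the most member UMIs, Isg15 at 28.3 CPM and Ifit1 at 7.08 CPM were at least 2-fold lower as well. The Irf7 difference rested on 4 UMIs, a level under the 30.6 CPM that a count of 0 would allow, and its interval spanned no change.

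In fibroblast-like cells 7 of the 9 members were at least 2-fold lower than in LEPR stromal cells, against 21.7% of 9740 genes, and 0 were at least 2-fold higher, against 6.91% of genes. Iigp1 was 66.9-fold lower (20.9 to 403), a ratio to 5 UMIs in 2 cells, a level under the 6.79 CPM that a count of 0 would allow and one from which expression was not read. Irf7 was 36.6-fold lower on 1 UMI (3.88 to 37368.3) and Ifit1 18.2-fold lower on 2 UMIs (3.24 to 724). Irf1 and Ifit3 were within 2-fold, but Irf1 was at 30.8 CPM without the 10 fibroblast-like cells with the most member UMIs, and then no longer within it. Ratios of Rsad2 and Ifit3 had intervals that spanned no change.

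In megakaryocyte-like cells 8 members were at least 2-fold lower than in LEPR stromal cells, against 42.8% of 9988 genes, and 0 were at least 2-fold higher, against 16.1%. Rsad2 was the member within 2-fold, at 7.43 CPM (3.21 to 14.7), but it was at 1.15 CPM without the 10 megakaryocyte-like cells with the most member UMIs, and then no longer within it. The highest levels there were those of Bst2 at 49.3 CPM and Isg15 at 24.6 CPM, and Bst2 was at 32.1 CPM as the mean over single cells.

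Erythroid cells did not share 1 pattern for the 9 genes. With more globin the levels of Rsad2 and Isg15 were higher and those of Bst2 and Irf1 lower, pooled Irf7 differed by less than counting error between the first and last bins, and pooled Iigp1, Gbp2, Ifit1 and Ifit3 were at 1.41 CPM or lower in each of the 5 bins. Between cells under 0.5% and at 6% or more, 3 members were at least 2-fold higher (4.41% of 9670 genes were) and 5 at least 2-fold lower (28.8% of genes). The shares are of genes with at least 100 UMIs over both bins, which Ifit1 among the higher members and Iigp1, Gbp2 and Ifit3 among the lower did not reach. With that minimum Rsad2 and Isg15 were higher and Bst2 and Irf1 lower. Iigp1, Gbp2 and Ifit3 had 1, 3 and 2 UMIs in the last bin, under the 0.302 CPM that a count of 0 would allow there. The interval of the Ifit3 ratio spanned no change, and no direction was read for these 3 genes. Ifit1, higher only where the minimum of 100 UMIs was not applied, was at 0.715 CPM in the last bin with a minimum of 500 genes. That was no longer 2-fold above the 0.543 CPM of the first bin. As the mean over single cells Ifit1 was at 0.237 CPM in the first bin and 16.5 CPM in the last. The log2 ratio of the median gene was -0.52.

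**Figure D2:**
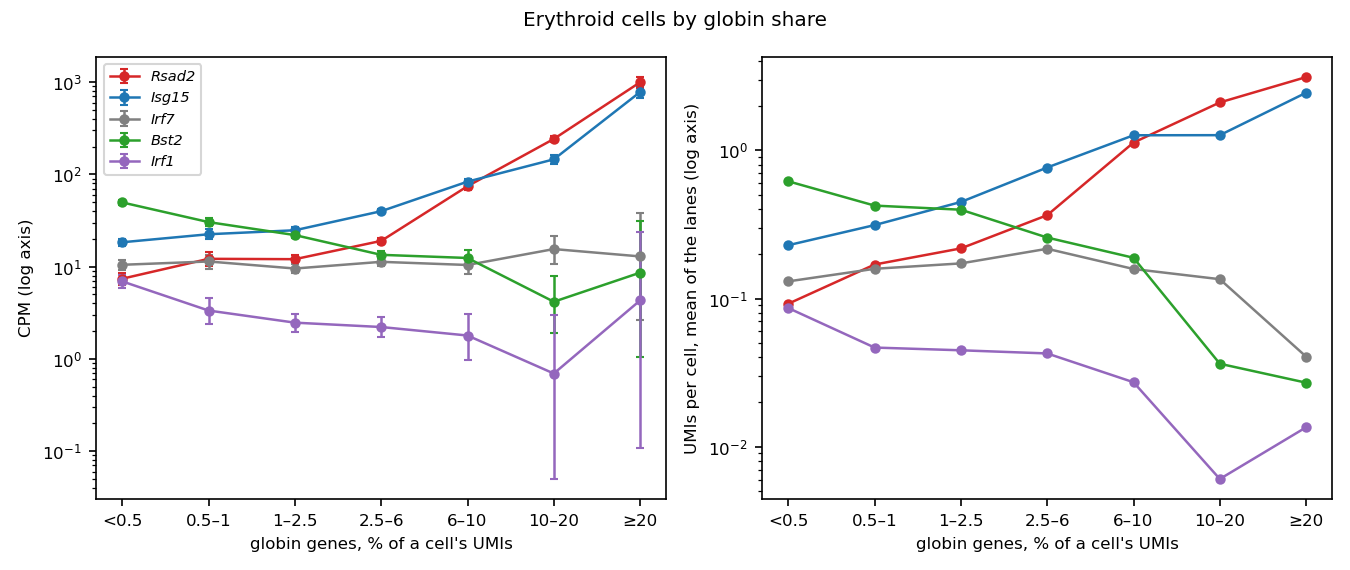
Erythroid cells in 7 bins of globin share (x axis, percent of UMIs), with CPM and 95% Poisson intervals on the left and UMIs per cell (mean of the lanes) on the right, both on log axes. Rsad2 passes from 7.40 CPM to 996 CPM and Isg15 from 18.4 CPM to 781 CPM, while Bst2 is lower at 6 to 10% than under 0.5% in both panels.

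Rsad2 was at 7.40 CPM (6.37 to 8.55) in cells with under 0.5% globin, 12.2 CPM at 0.5 to 1%, 12.0 CPM at 1 to 2.5%, 19.0 CPM at 2.5 to 6% and 132 CPM in lane 2 and 133 CPM in lane 1 at 6% or more. The step from 0.5 to 1% to the next bin was within counting error, and the last step was 6.97-fold (6.31 to 7.7). Between the first and last bins the level differed 17.9-fold (15.3 to 21). At 10 to 20% globin it reached 242 CPM, and at 20% or more, in 74 cells, it reached 996 CPM (872 to 1133). As the mean over single cells the level was 4.96 CPM under 0.5%, 69.1 CPM at 2.5 to 6% and 1550 CPM at 6% or more.

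A CPM depends on the other RNA of the cell, so the UMIs per cell were also counted. With the lanes summed, the median cell held 32563 UMIs at 6 to 10% globin, 10477.5 at 10 to 20% and 2842 at 20% or more. Rsad2 had 0.0923 UMIs per cell (mean of the lanes) under 0.5% globin and 3.13 UMIs per cell at 20% or more. The share of cells with Rsad2 went from 6.62% under 0.5% to 44.7% at 6% or more, and at a fixed 1000 UMIs per cell from 0.302% to 26.9%. With globin UMIs left out of the total, the level at 20% or more was 1759 CPM. The higher level was thus present per cell, per UMI and per non-globin UMI. With a minimum of 500 genes the level at 6% or more was 83.8 CPM.

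Isg15 followed a similar course from a higher start, with 18.4 CPM under 0.5%, 22.4, 24.8 and 39.9 CPM in the middle bins and 109 and 117 CPM in the lanes of cells at 6% or more. The difference between the first and last bins was 6.16-fold (5.52 to 6.89). In the last bin Isg15 was 1.21-fold below LEPR stromal cells (interval 1.1 to 1.32), whereas Rsad2 was 11.6-fold above them. As the mean over single cells the order of Isg15 turned, with 497 CPM in the last bin and 128 CPM in LEPR stromal cells. UMIs per cell of Isg15 (mean of the lanes) went from 0.229 to 2.45 between the first bin and cells at 20% or more.

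Bst2 went the other way, with 49.6 CPM (46.9 to 52.5) under 0.5%, then 30.4, 22.0 and 13.4 CPM, and 10.5 CPM (8.61 to 12.8) at 6% or more, a 4.71-fold difference. Each step was beyond counting error in the pooled levels. As the mean over single cells Bst2 was at 33.8, 17.7, 17.7, 11.6 and 12.5 CPM in the 5 bins, so not every step was kept. Irf1 was at 6.92 CPM in the first bin and 1.61 CPM in the last, 4.29-fold lower, with a difference beyond counting error between the first and second bins and between no later neighbours. Irf7 was at 10.5 CPM and 11.6 CPM in the same bins and lay between 9.54 and 11.6 CPM in all 5 when pooled. As the mean over single cells it was at 13.9 CPM in the first bin and 21.6 CPM in the last, so that the small difference between them rests on pooling. Ifit1 was at 0.543 CPM in the first bin and 1.41 CPM in the last, on 28 UMIs in 10 cells, and 10 of these UMIs were in 1 cell.

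Rsad2 and Isg15 were often in the same globin-rich cells. Of 808 cells at 6% or more globin thinned to 1000 UMIs, 217 had Rsad2, and Isg15 was found in 33.6% of those (27.4 to 40.4) and in 6.94% of cells without Rsad2. Without thinning the shares were 51.4% and 35.4%. Irf7 was found in 7.02% of thinned cells with Isg15 and 1.3% of those without. Bst2 shares were 0.877% and 1.01%. Cells of this bin span a range of globin shares over which the levels of both genes differ, and that range was not held fixed.

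Within LEPR stromal cells the members were found together in some cells. Thinned to 1000 UMIs, 53.1% of the 1877 cells had no member, 31.1% had 1, and 15.9% (14.3 to 17.6) had 2 or more. In the thinned erythroid cells 1.54% had 2 or more, but 9.65% (7.71 to 11.9) of those at 6% or more globin did, and in endothelial-like cells 17.3% (8.23 to 30.3). At full depth 57.3% of LEPR stromal cells had 2 or more members, which shows how strongly this share depends on depth.

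**Figure D3:**
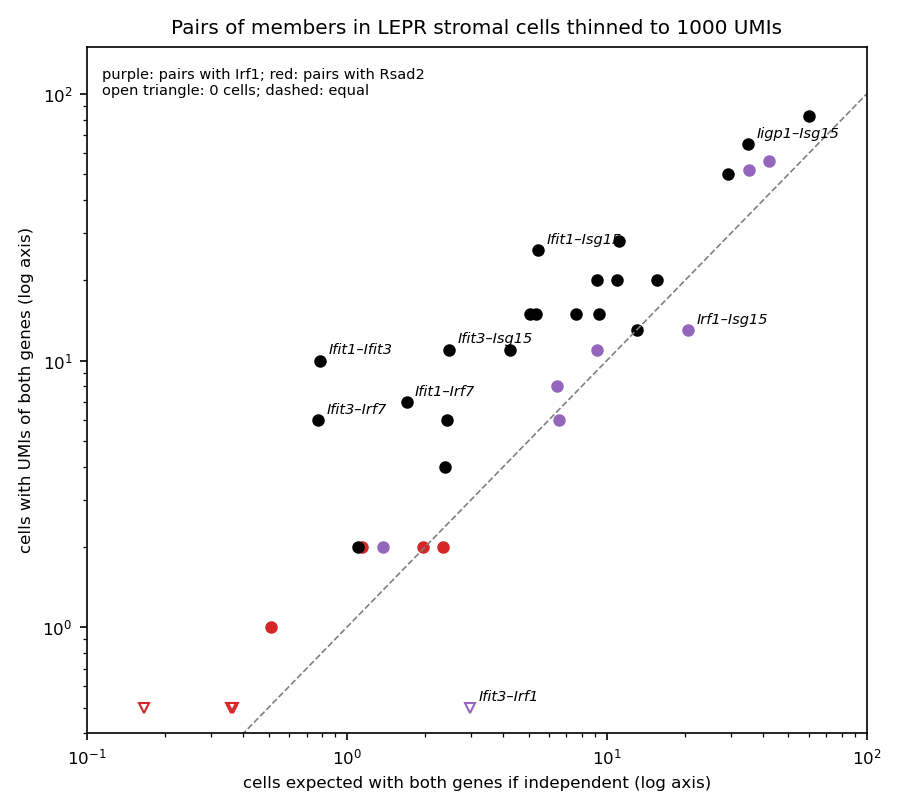
Pairs of members in 1877 LEPR stromal cells thinned to 1000 UMIs, with the cells that held both genes (y axis) against the number expected if the genes were independent (x axis), both on log axes, pairs with Irf1 in purple, pairs with Rsad2 in red and open triangles for pairs found in 0 cells. Ifit1 and Ifit3 lie far above the dashed line of equality with 10 cells against 0.79, whereas Irf1 and Isg15 lie below it with 13 cells against 20.5.

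Among the commonest pairs were Iigp1 with Bst2 in 83 cells and Iigp1 with Isg15 in 65 cells. Pairs of the IFIT genes, Isg15 and Irf7 were rarer but stood farther above the number expected if the genes were independent, such as Ifit3 and Irf7 with 6 cells against 0.776. Isg15 was found in 45.6% (32.4 to 59.3) of cells with Ifit1 and in 8.41% of cells without it. Ifit3 was found in 6.15% (3.11 to 10.7) of cells with Isg15 and 0.883% of cells without it. Ifit1 was found in 38.5% (20.2 to 59.4) of the 26 cells with Ifit3 and 2.54% of the others. In each of these 3 comparisons the intervals of both shares did not overlap.

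Iigp1 was found in 36.3% (29.3 to 43.8) of cells with Isg15 and in 17.7% (15.9 to 19.6) of cells without it. Bst2 was found in 27.9% and 15.1% of the same cells. Gbp2, however, was found in 8.38% (4.77 to 13.4) and 3.83% (2.97 to 4.85), intervals that overlapped slightly.

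Irf1 was not found more often with Isg15. It was found in 7.26% (3.92 to 12.1) of cells with Isg15 and 11.9% (10.4 to 13.5) of cells without it, intervals that overlapped. No cell held both Irf1 and Ifit3, against 2.98 expected if the genes were independent. Irf1 was found with Iigp1 in 56 cells, against 41.9 expected, and with Bst2 in 52 cells, against 35.2. Bst2 was found in 24.2% (18.6 to 30.5) of cells with Irf1 and 15.3% (13.6 to 17.2) of cells without it. Rsad2 was too rare for a reading, with 12 positive cells.

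LEPR stromal cells were then divided by how many of Isg15, Ifit1, Ifit3, Rsad2 and Irf7 they held at full depth. The 211 cells (11.2%) with at least 2 of these genes had a median of 7111 UMIs, and the 1202 cells with none had 4752, so depth differed with the division. Adipoq, a stromal gene that the gate did not use, had a ratio of 1.06 (0.984 to 1.14) between the groups. Of the members that did not define the groups, Gbp2 was 3.1-fold (2.38 to 4.03), Bst2 2.6-fold (2.28 to 2.98) and Iigp1 2.44-fold (2.19 to 2.71) higher in cells with at least 2, whereas Irf1 had a ratio of 0.957 (0.772 to 1.18).

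By CPM ratio between these groups, the leading genes outside the set were Ifit3b, Cxcl10, Ifi27l2a, Itga2b, Slfn14, Nrgn, Ctla2a, Plek, Ppbp and Usp18. Ifit3b, a close relative of Ifit3 whose reads can be hard to assign, was 19.6-fold higher, and Cxcl10, a chemokine for T cells, 15.6-fold on UMIs from 14 of the 211 cells. Usp18, which removes Isg15 from proteins and damps the interferon receptor, was 8.31-fold higher and was found in 20.4% of cells with at least 2 of the genes and 2.41% of those with none. Itga2b and Ppbp, which are platelet and megakaryocyte genes, were 12.7-fold and 9.13-fold higher on UMIs from 2 and 10 cells, and Hbb-bs, a globin gene, was 2.3-fold higher. The part of platelet and erythroid RNA in these groups was not tested.

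UMIs of the interferons themselves were few. The tables list 21 interferon genes, of which 5 had any UMI, 13 UMIs in all over 10 of the 9573 cells with the lanes summed. Ifnz had 4 UMIs, all in LEPR stromal cells (0.372 CPM, under the 0.558 CPM that a count of 0 would allow there), and no other interferon gene had more. Cells that the lineage depletion and the CD45 sort removed are not in these data, and their interferon RNA was not measured.

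The receptors and the pathway behind them were read from lists of named genes. All 5 receptor genes with enough UMIs were at least 2-fold higher in LEPR stromal than in erythroid cells, beside 44.5% of all genes. Ifnar2 was at 306 against 42.4 CPM, Ifnar1 at 74.7 against 8.85 CPM, Ifngr1 at 268 against 16.7 CPM and Ifngr2 at 105 against 2.56 CPM. Along erythroid maturation the interferon-gamma receptor chain Ifngr1 went from 45.3 CPM under 0.5% globin to 2.92 CPM at 6% or more, whereas the type I chains were not lower, Ifnar1 at 8.99 and 10.4 CPM, within counting error, and Ifnar2 at 40.1 and 46.8 CPM, a log2 ratio of 0.22 (0.06 to 0.38).

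**Figure D4:**
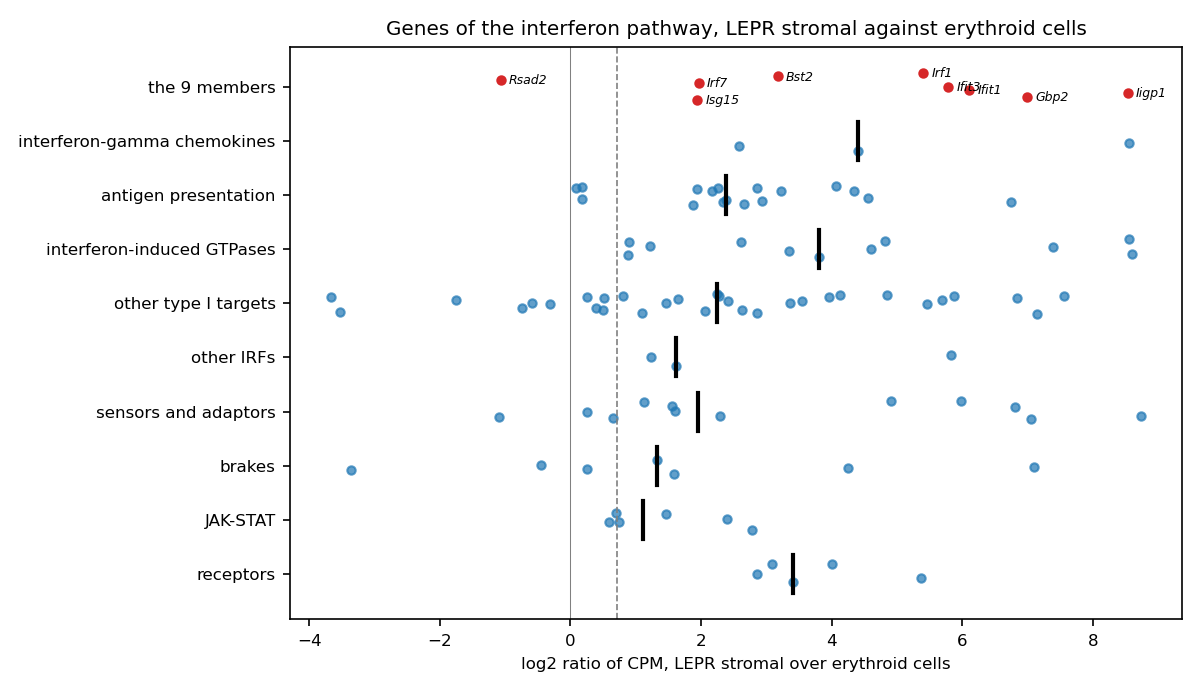
Log2 ratio of CPM between LEPR stromal and erythroid cells for the genes of 9 pathway lists (blue, 1 point per gene, black bars are list medians) and for the 9 members (red, named). The dashed line is the median of all 12503 genes, 0.71, and Rsad2 is the member on the other side of 0.

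Over all lists 70 of 95 genes were at least 2-fold higher in LEPR stromal cells and 5 lower, with a median log2 ratio of 2.40 against 0.71 for all genes. Of the signal carriers, 3 of 6 JAK, STAT and IRF9 genes were higher, and among the brakes 4 of 7 were higher and 1 lower, beside 44.5% and 19.5% of all genes, and nothing was read from these counts. Socs3, an inhibitor of JAK signalling, was at 174.7 against 1.29 CPM, and Ptpn6, a phosphatase of blood cells, was lower at 1.30 against 13.4 CPM.

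The interferon-induced GTPases, the family of Gbp2 and Iigp1, had 9 of 11 genes higher, beside 44.5% of all genes higher and 19.5% lower, shares that also stand beside the counts that follow. Gm4951 was at 394 against 1.03 CPM and F830016B08Rik at 187 against 0.498 CPM, and both are near relatives of Iigp1, so the division of reads among the 3 genes is uncertain. Of the other type I targets 20 of 31 were higher and 3 lower. Isg20, an RNA exonuclease, was 24.9 CPM in LEPR stromal and 318 CPM in erythroid cells, and along globin it went from 188 to 482 CPM. Antigen presentation had 14 of 17 genes higher, with H2-K1 at 2519 against 150.5 CPM and B2m at 2058 against 564 CPM, and the chemokine Cxcl9 was at 206 against 0.55 CPM.

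In globin-rich erythroid cells the listed pathway genes had shares of calls near those of all genes. Between cells at 6% or more and under 0.5%, 5 of 78 listed genes were at least 2-fold higher and 26 lower, beside 4.41% and 28.8% of all genes, with a median log2 ratio of -0.54 against -0.52 for all genes. The 5 higher genes, of which Irgm2 and Oas3 are named here after their values were seen, were Irgm2, Oas3, Oasl2, Igtp and Isg20. Irgm2, an immunity-related GTPase, went from 1.27 to 12.5 CPM, a log2 ratio of 3.30 (2.73 to 3.92), and Oas3, a sensor of double-stranded RNA, from 2.89 to 8.51 CPM. Isg20 had a log2 ratio of 1.36, Oasl2 went from 0.824 to 3.32 CPM and Igtp, an immunity-related GTPase, from 9.79 to 27.7 CPM. Lgals9, Ptpn6 and H2-K1 had log2 ratios of -2.61, -2.46 and -1.42.

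The genes whose class profile was most like the mean profile of the 9 members over 10 classes, by Pearson's r of log2(CPM + 1) among 10119 genes, were Gm4673 (r = 0.986), Adgrf5 (0.981), Plxna2 (0.976), Plekhg2 (0.975), Sema7a (0.974), Oasl2 (0.973), Parp14 (0.968), Epas1 (0.964), Ifnar1 (0.963) and H2-Q4 (0.962). Oasl2, Parp14, Ifnar1 and H2-Q4 are on the interferon lists. The members themselves ranged from 0.977 for Ifit1 to 0.397 for Rsad2, but each is part of that mean, so these values do not compare with those of other genes. These 10 classes come from 1 library and differ in depth, and the values describe likeness only.

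At the edge of the stromal gate the cells just inside and just outside were set side by side as a description. The 61 cells with Lepr just inside it, at 5000 to 7000 CPM of Cxcl12, had 581 CPM of Iigp1 and 131.6 CPM of Gbp2. The 77 cells just outside, at 3000 to 5000 CPM, had 78.9 CPM of Iigp1 and 8.85 CPM of Gbp2. Isg15 was at 138 CPM inside, on 43 UMIs, and 47.2 CPM outside, on 64 UMIs. Bst2 was at 170.1 and 50.9 CPM and Irf1 at 167 and 33.2 CPM. Ifit1, Ifit3, Irf7 and Rsad2 had 7, 1, 4 and 5 UMIs inside, too few for a direction to be read. The median cell held 3065 UMIs and 0.187% globin inside and 4310 UMIs and 0.296% globin outside. The levels are pooled, so deep barcodes weigh more in them, which the medians do not show. The part of depth and globin in the differences was not tested.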

How the data were processed

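The deposited matrices hold raw UMI counts per gene and barcode, made by the authors with Cell Ranger on mm10 (version not given in the labels) after a 3′ droplet library. The submitters' notes also name R 4.0.3 and Seurat 4.0. Both lanes were summed per barcode, since they share barcodes and differ by less than sampling noise (variance of the lane difference over its Poisson expectation, 0.559), and they count as 1 sample with no test and no p-value.

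The members, lists and rules were chosen with earlier results of these data known, and the limits of the marker gates (3 markers and 0.3% of UMIs, or 3 of 11 non-globin erythroid markers) were set after seeing the files. Levels are UMIs per 1000000 UMIs of the class (CPM). Intervals are 95% exact Poisson, conditional binomial for ratios, and Clopper-Pearson for shares of cells, each on lane means where UMIs are counted. A call is a 2-fold ratio, counted over all genes with at least 100 UMIs and over the members without that minimum, and a count of 0 is taken as 3 counts. Cells were thinned to 1000 UMIs with a fixed seed for each barcode, which left out 28 erythroid and 2 megakaryocyte-like cells. Scrublet in scanpy 1.11.5 (expected rate 8%) called 2.25% of cells doublets, which were kept in the main values. Genes named are the members, up to 5 genes per list by UMIs, and the leading 10 by ratio or likeness. F830016B08Rik (a near relative of Iigp1), Irgm2 and Oas3 were named after their values were seen. Functions were tested on simulated data. Python 3.11.15, numpy 2.4.6 and scipy 1.17.1 were used. Gene positions are from GENCODE on GRCm38 and promoters from RefSeq. Values that rest on certain genes are not reported here.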

Additional observations from a re-analysis of the deposited data

Results flagged for a closer look

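The 1483 barcodes that the limits on genes and mitochondrial RNA removed, which enter no comparison, also held UMIs of the members. Rsad2 was the highest there, at 23.65 CPM (18.1 to 30.3), on 62 UMIs as the mean of the lanes and in 41 barcodes, above the 1.14 CPM that a count of 0 would allow. Isg15 was at 17.7 CPM and Iigp1 at 6.10 CPM in the same barcodes, which had a median mitochondrial share of 55.9%.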

How the results depend on the processing

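The count of members at least 2-fold higher in LEPR stromal than in erythroid cells was 8 under 14 of 15 alternatives and 7 with the mean of the CPM of single cells, where Isg15 had a log2 ratio of 0.64. No member's ratio changed sign under any of them. The summed CPM of the members in LEPR stromal cells was 913 with the Cxcl12 gate at 2000 CPM, 982.3 as the mean over single cells and 961.4 without the 10 cells with the most member UMIs. This last setting leaves out cells chosen for their member UMIs, so levels fall by the choice itself. The 10 cells are a far larger part of the 52 endothelial-like than of the 1877 LEPR stromal cells. Each lane alone, with the classes gated again, gave 1069 and 1070. The share of LEPR stromal cells with 2 or more members was 32.8% when thinned to 2000 UMIs and 57.3% without thinning. The share of cells with Isg15 that held Ifit3 was 12.2% without thinning. The mean over single cells moved Rsad2 at 6% or more globin from 132.5 to 1550 CPM, Ifit1 from 1.41 to 16.5, Isg15 from 113 to 497 and Irf7 from 11.6 to 21.6, and Rsad2 in all erythroid cells from 24.1 to 205.8 CPM, since shallow cells then weigh as much as deep ones. With a minimum of 500 genes Rsad2 was 83.8 CPM there. List gates of 0.15% and 0.6%, 5 erythroid markers, globin-poor stroma and no mitochondrial limit were chosen after seeing the data. The number of mice is 1 pool, endothelial-like values rest on 52 cells, and Ifit3 and Rsad2 in stroma rest on few UMIs. No paired analysis was possible because there is 1 group.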

Other observations

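The 51 plasma cells held Isg15 at 105 CPM (83.0 to 131), but 46 of their 155 UMIs were in 1 cell, and without the 10 cells with the most member UMIs the level was 17.2 CPM. It was 159.7 CPM as the mean over single cells. Bst2 was found in 72.5% of the plasma cells. No UMI of Iigp1 or Ifit3 was found in this class, which allows up to 4.07 CPM. Macrophage and monocyte markers summed to 368.6 CPM in it, and their part in these values was not tested.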
